A study of Mus musculus with 26 samples.

Results

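The Fos, Jun and Egr transcription factors examined here are 10 genes of mouse frontal cortex: Fos, Fosb and Fosl2, then Jun, Junb and Jund, then Egr1, Egr2, Egr3 and Egr4. They were found by gene symbol among the 55487 genes of the RNA count tables, and all 10 passed the filter on low counts, as did 18050 genes in all. Fosl1, the remaining gene of the Fos family, did not pass it. The mice compared were adolescent littermates that carried a frameshift in 1 allele of Adnp (HET, 7 RNA libraries) or the wild-type gene (WT, 7 RNA libraries). The ADNP protein carries zinc fingers and a homeodomain and works in chromatin complexes. No treatment, behavioural task or other allele is named in the labels, and the sources used here do not give the sex, the age in days or the time and manner of tissue collection. Open chromatin was measured by ATAC-seq, in which a transposase cuts accessible DNA, and was deposited as 1 merged peak list for HET and 1 for WT frontal cortex.

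Immediate early genes are switched on within minutes of a stimulus by transcription factors that are already in the cell, mainly SRF with its ELK partners and CREB, which are controlled by ERK and calcium-dependent kinases. In cortical neurons most of the genes described here are such genes, and their mRNA levels are widely used as a record of recent neuronal activity. Fos proteins bind DNA mainly together with a Jun partner, as the AP-1 factor, while Egr proteins bind GC-rich sites through zinc fingers and are held in check by the corepressors NAB1 and NAB2.

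Promoter sequences of 4 of the genes are shown because their peaks are described further on: Fos and Egr4 had a peak at the start in both genotypes' lists, and the HET list alone had a peak just upstream of Fosb and one over a later RefSeq start of Egr2, which is the Egr2 start used here. Each is the 250 bases before a RefSeq transcript start on GRCm38.p6, written 5′ to 3′ on the gene's strand. Capitals mark the letters of a searched motif on either strand. Fos lies at chr12:85473640-85473889 (plus strand), Fosb at chr7:19310046-19310295 (minus), Egr2 at chr10:67537619-67537868 (plus) and Egr4 at chr6:85513590-85513839 (minus).
Fos: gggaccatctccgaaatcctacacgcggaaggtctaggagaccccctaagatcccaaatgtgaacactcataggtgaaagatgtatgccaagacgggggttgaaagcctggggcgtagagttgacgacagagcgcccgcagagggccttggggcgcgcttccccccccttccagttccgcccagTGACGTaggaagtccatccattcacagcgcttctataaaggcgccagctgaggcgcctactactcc
Fosb: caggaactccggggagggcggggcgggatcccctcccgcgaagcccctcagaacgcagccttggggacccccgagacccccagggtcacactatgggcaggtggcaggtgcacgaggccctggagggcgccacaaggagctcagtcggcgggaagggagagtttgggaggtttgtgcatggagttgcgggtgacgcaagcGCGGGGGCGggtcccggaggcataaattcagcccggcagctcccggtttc
Egr2: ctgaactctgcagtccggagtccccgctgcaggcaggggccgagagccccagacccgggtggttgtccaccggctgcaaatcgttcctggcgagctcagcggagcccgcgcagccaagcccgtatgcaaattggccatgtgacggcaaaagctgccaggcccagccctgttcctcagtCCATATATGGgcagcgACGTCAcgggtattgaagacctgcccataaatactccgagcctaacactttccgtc
Egr4: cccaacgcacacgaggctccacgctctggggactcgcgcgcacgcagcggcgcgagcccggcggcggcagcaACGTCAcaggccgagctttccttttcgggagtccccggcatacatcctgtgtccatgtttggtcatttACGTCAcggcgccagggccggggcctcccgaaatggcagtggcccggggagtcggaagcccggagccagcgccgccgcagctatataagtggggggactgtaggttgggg
The motifs searched were TGACGT, the core of the cAMP response element that CREB binds, TGANTCA, the AP-1 site, GCGNGGGCG, an Egr site (N is any base), and the CArG box of SRF. A full palindromic element would hold the first of these on both strands. Fos held TGACGT 66 to 61 bases before its start, and Egr4 held it at 178 to 173 and at 110 to 105 bases. Egr2 held a CArG box 72 to 63 bases before this start and TGACGT 56 to 51 bases before it. Fosb held an Egr site 50 to 42 bases before its start. Among 32851 promoter windows of the same length, 6.47% held TGACGT, 6.75% TGANTCA, 4.7% GCGNGGGCG and 1.47% a CArG box. RefSeq windows were searched for 8 of the 10 genes, and none of these windows held TGANTCA. Egr3 had no entry among the promoter windows, and Egr1 was left out of the search by choice. Each printed window held a searched motif, but the windows of Jun, Junb and Jund, which are not printed, held none. The window before the first RefSeq start of Egr2 also held none. Fosl2, not printed either, held an Egr site 79 to 71 bases before its start. The windows of Jund and Fosl2 lay before RefSeq starts that differ from the counted gene starts, and 0 of their bases were under a peak in either list. A match describes the letters in this window and does not show that a factor binds there. Variants of the motifs were not searched, so a window without a match does not show that the promoter lacks such a site.

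Levels set between genes are given per length, as TPM computed from the counts, the annotated exon length and the library size. Egr1 was the most abundant of the 10 genes, at 188 ± 82.3 TPM in HET and 414 ± 132 TPM in WT (SD, n = 7 each). In HET it was followed by Jund (121 ± 10.2 TPM), Junb (116 ± 59.3), Egr3 (85.5 ± 47.3), Jun (63.6 ± 11.2), Egr4 (60.8 ± 34.4) and Fos (57.8 ± 32.6). Fosl2 (15.8 ± 5.06 TPM), Fosb (10.7 ± 3.65) and Egr2 (6.52 ± 4.00) had the lowest levels in HET. The order in WT was Egr1, Egr3 (230.0 ± 83.3 TPM), Junb (214 ± 86.3), Egr4 (140 ± 49.9), Jund (129 ± 7.95), Fos (101.7 ± 45.6), Jun (70.1 ± 13.6), Fosl2 (27.9 ± 9.40), Fosb (23.1 ± 8.52) and Egr2 (21.3 ± 12.5). The step down to Fosl2, which followed Fos in HET and Jun in WT, was the 1 step in each order at which the ranges of mean ± SD of neighbours did not meet. The Egr genes together made 341 ± 160 TPM in HET and 805 ± 246 TPM in WT, the Jun genes 301 ± 69.8 TPM in HET and 412 ± 102.1 TPM in WT, and the Fos genes 84.4 ± 36.2 TPM in HET and 153 ± 61.1 TPM in WT. Junb made up 36.5% ± 11.7 of the Jun family's TPM in HET and 50.04% ± 8.48 in WT. The level of Jund is uncertain, since 52.6% of its exon bases are shared with the antisense gene Gm11175, and reads that overlap several genes were left out of the counts. Jun shares 7.28% of its exon bases with the antisense gene Junos.

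The comparison of HET with WT asks how the mutation of 1 Adnp allele bears on gene expression in frontal cortex. All 10 genes had a lower estimate in HET, and for the 8 genes other than Jun and Jund the HET mean was between 29.4% and 54.6% of the WT mean. For Jun the HET mean was 86.8% of the WT mean and for Jund 90.0%. None of the 10 passed the test: edgeR's quasi-likelihood test, adjusted over all genes tested, called 0 of them lower and 0 higher at an adjusted p under 0.05, while it called 0.382% of all genes lower and 0.587% higher. At an unadjusted p under 0.05, 9 of the 10 were lower, all but Jun, against 10.4% of all genes tested. A negative log2 fold change was found for 10 of 10 genes and for 46.7% of all genes, and the median log2 fold change was -1.05 over the 10 genes and 0.02 over all genes tested. At an adjusted p under 0.1 in edgeR, Fosb, Fosl2, Egr1 and Egr2 were lower, which was 4 of the 10 against 3.11% of all genes. DESeq2 called 6 of the 10 lower (Fosb, Fosl2, Egr1, Egr2, Egr3 and Egr4), against 4.07% of all genes. With limma-voom and sample weights 8 were lower, all but Fos and Jun, against 5.29% of all genes. The 10 genes and the gene lists below were chosen with earlier results of these data known. Many of the 10 were also high or low in the same libraries. Their shares are therefore set beside those of all genes as a description and not as a test. The labels' protocols give 7 mice per genotype, so the p-values rest on the spread between libraries of different mice. That spread includes differences in region markers and, within HET, in the molecule label, both described below. Frontal cortex was sequenced as bulk tissue, so fewer cells that express a gene and less RNA per cell cannot be told apart.

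**Figure D1:**
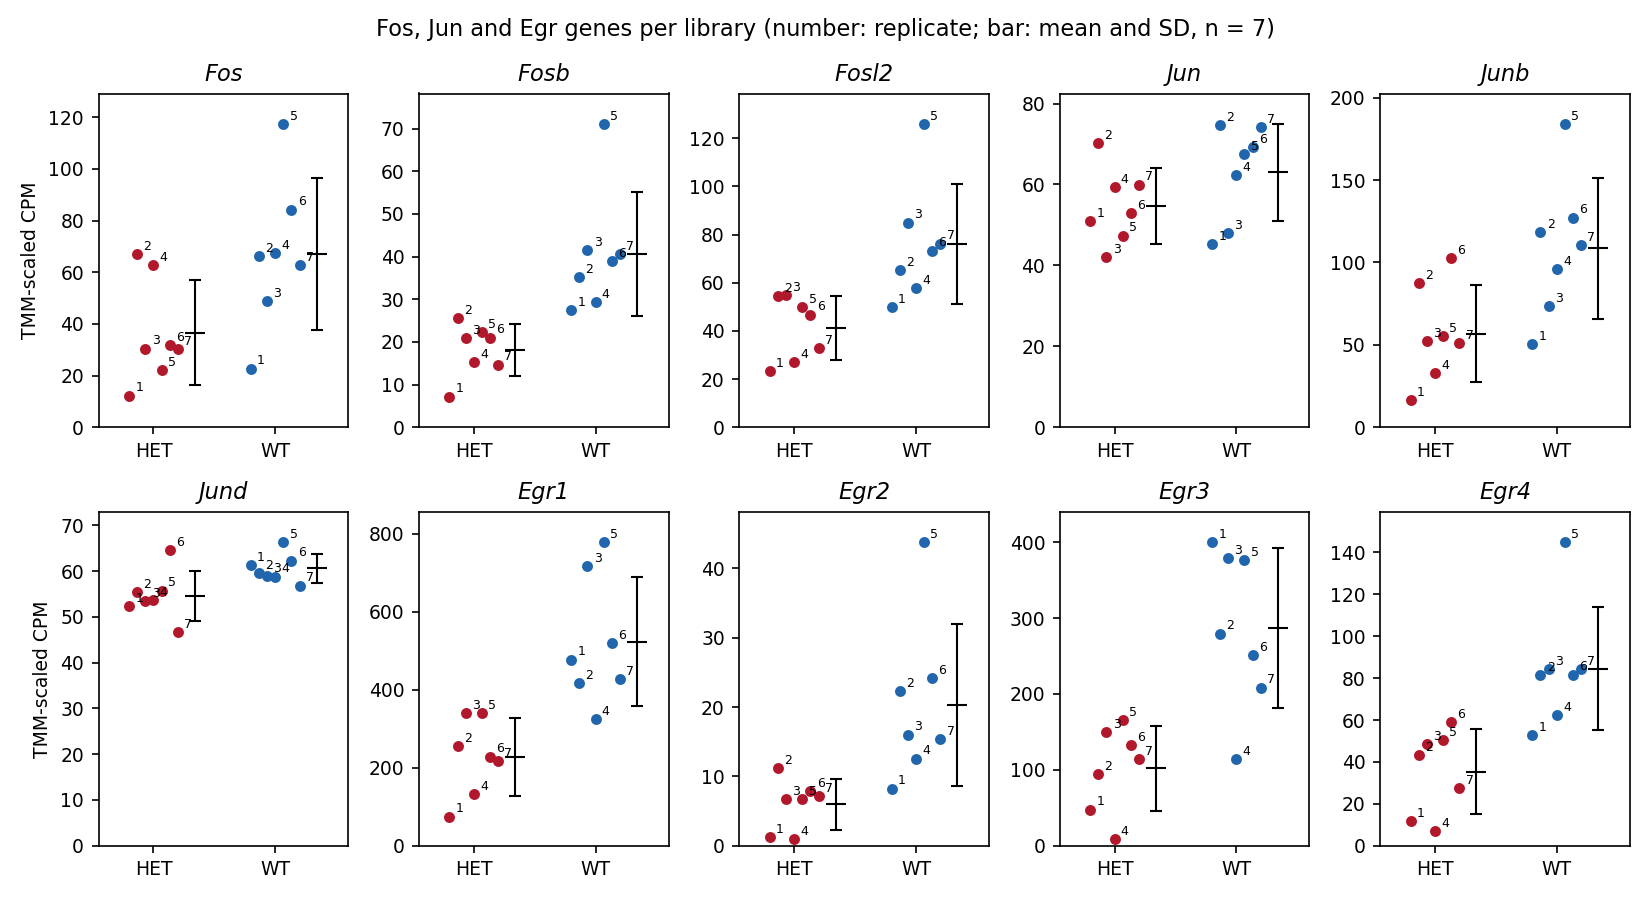
Level of each of the 10 genes in each library, as CPM, counts scaled to TMM-adjusted library size, on axes that start at 0. Points are libraries with their replicate number, HET on the left and WT on the right of each panel, and the bar beside them is the mean with the SD (n = 7). Every HET library of Fosb lies below the lowest WT library, while the groups overlap for the other 9 genes.

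Among the Fos genes, Fosb had the clearest separation. Fosb encodes FosB and, by alternative splicing, the truncated and long-lived ΔFosB, which gene counts do not tell apart. Its lowest, median and highest levels were 7.19, 20.8 and 25.6 CPM in HET libraries, against 27.4, 39.0 and 71.1 CPM in WT libraries. All 7 HET libraries lay below all 7 WT libraries, which was the case for 1 of the 10 genes and for 0.283% of all genes tested. The log2 fold change was -1.16 (SE 0.26, 95% interval -1.72 to -0.61) with an adjusted p of 0.0506 in edgeR. That p lay close to the threshold, and Fosb alone of the 10 was called with DESeq2's size factors (adjusted p 0.0487, 0.416% of all genes lower) or with a filter of 1 CPM in 7 libraries (adjusted p 0.0463, 0.609% lower). Fosl2 encodes FRA-2, a Fos protein without the activation domain of FOS. It stood at 23.4, 46.7 and 54.8 CPM in HET libraries (lowest, median and highest) and at 49.9, 73.4 and 126 CPM in WT libraries. Here 4 HET libraries were below the lowest WT library, and the log2 fold change was -0.88 (SE 0.23, adjusted p 0.0703 in edgeR). Fos itself, the most widely used activity marker of the family, overlapped far more. It had 12.2, 30.5 and 67.1 CPM in HET libraries and 22.7, 66.3 and 117 CPM in WT libraries (lowest, median and highest). HET replicates 2 and 4, at 67.1 and 62.7 CPM, were close to the WT median, and WT replicate 1 at 22.7 CPM was below 5 of the 7 HET libraries. The log2 fold change of Fos was -0.87 with an SE of 0.38 and an adjusted p of 0.193 (edgeR).

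Of the Jun genes, Junb had lower levels in HET, and Jun and Jund differed little. Junb encodes a partner of the Fos proteins that activates fewer targets than c-Jun and is itself induced by activity. Its levels were 16.6, 52.3 and 103 CPM in HET libraries and 50.2, 111 and 184 CPM in WT libraries (lowest, median and highest). Only HET replicates 1 and 4 lay below the lowest WT library, and the log2 fold change was -0.93 (SE 0.35, adjusted p 0.149 in edgeR). Jun encodes c-Jun, which also acts in stress responses through the JNK kinases. It ranged from 42.1 to 70.2 CPM in HET and from 45.3 to 74.6 CPM in WT, with medians of 52.9 CPM in HET and 67.5 CPM in WT. The groups overlapped almost throughout, with a log2 fold change of -0.20 (95% interval -0.48 to 0.08, adjusted p 0.378 in edgeR). Jund, which encodes the most steadily expressed Jun protein, had the smallest spread of the 10 genes, with a coefficient of variation of 9.86% in HET and 5.09% in WT. It stood at 46.6, 53.6 and 64.6 CPM in HET and 56.8, 59.6 and 66.3 CPM in WT (lowest, median and highest). Although 6 HET libraries were below the lowest WT library, HET replicate 6 at 64.6 CPM was above 6 WT libraries, and the log2 fold change was -0.15 (95% interval -0.28 to -0.02, adjusted p 0.171 in edgeR). Without HET replicate 6 Jund was called lower (log2 fold change -0.20, adjusted p 0.0429), as was Fosb (-1.20, adjusted p 0.0364), against 2.77% of all genes.

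The 4 Egr genes had the lowest HET means relative to the WT means. Egr1, known also as Zif268 and needed for lasting forms of memory in mice, had 74.5, 228 and 341 CPM in HET libraries and 326, 478 and 779 CPM in WT libraries (lowest, median and highest). The HET libraries were below all WT libraries except for replicates 3 and 5, at 341 CPM each, which exceeded WT replicate 4 alone. The log2 fold change was -1.20 (SE 0.30, 95% interval -1.85 to -0.55) with an adjusted p of 0.0643 in edgeR. Egr2, or Krox-20, is best known for its part in hindbrain patterning and in myelination by Schwann cells, and was the least abundant of the 10. It had 0.977, 6.71 and 11.2 CPM in HET libraries and 8.25, 16.03 and 43.8 CPM in WT libraries (lowest, median and highest), on counts of 38 to 508 in HET and 319 to 1429 in WT. HET replicate 2 alone exceeded a WT library, and the log2 fold change of -1.76 was the most negative of the 10 (SE 0.50, 95% interval -2.83 to -0.70, adjusted p 0.0809 in edgeR). Egr3, which muscle spindles in mice require for their development, had 8.49, 114 and 165 CPM in HET libraries and 114, 280 and 400 CPM in WT libraries (lowest, median and highest). In this gene WT replicate 4 lay within the HET range at 114 CPM, and the other 6 WT libraries, at 208 CPM or more, were above every HET library. Its log2 fold change was -1.50 (SE 0.47, adjusted p 0.102 in edgeR). Egr4, whose loss makes male mice infertile, had 6.87, 43.3 and 59.1 CPM in HET libraries and 52.7, 81.7 and 145 CPM in WT libraries (lowest, median and highest). HET replicate 6 alone was above the lowest WT library, and the log2 fold change was -1.26 (SE 0.40, adjusted p 0.106 in edgeR).

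**Figure D2:**
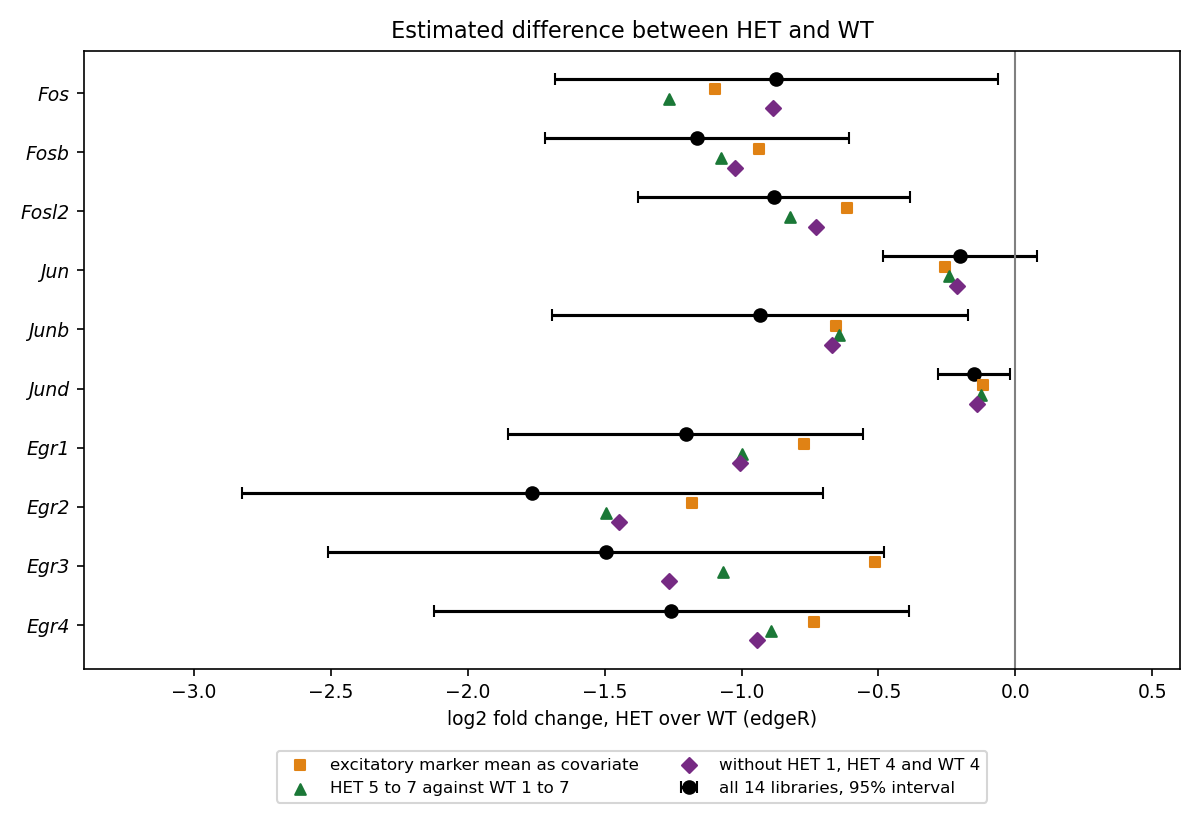
Log2 fold change of HET over WT for the 10 genes in edgeR. Black points with bars are estimates with 95% intervals from all 14 libraries, and coloured symbols are the same estimate with excitatory marker mean as a covariate, from HET 5 to 7 against WT 1 to 7, and without HET 1, HET 4 and WT 4; all 40 symbols lie left of 0.

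The 10 genes kept a negative estimate under each of the 26 alternatives, of which the threshold of 0.1 leaves the estimates as they are. The number called lower nevertheless moved with single libraries. Without WT replicate 4 edgeR called 5 of the 10 lower (Fosb, Fosl2, Egr1, Egr2 and Egr3), against 4.83% of all genes, and with each other library left out except HET replicate 6 it called 0. WT replicate 4 had the lowest Egr1 and Egr3 levels of the WT libraries. WT replicate 5 had the highest level in WT for 8 of the 10 genes, all but Jun and Egr3, and without it the log2 fold changes ranged from -1.46 for Egr2 to -0.13 for Jund. WT replicate 1 was lowest in WT for 7 genes (Fos, Fosb, Fosl2, Jun, Junb, Egr2 and Egr4) and highest for Egr3. HET replicate 1 was lowest in HET for Fos, Fosb, Fosl2, Junb and Egr1, and HET replicate 4 for Egr2, Egr3 and Egr4. In HET replicate 4 Fos was the second highest of the HET libraries at 62.7 CPM, while Egr3 stood at 8.49 CPM.

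**Figure D3:**
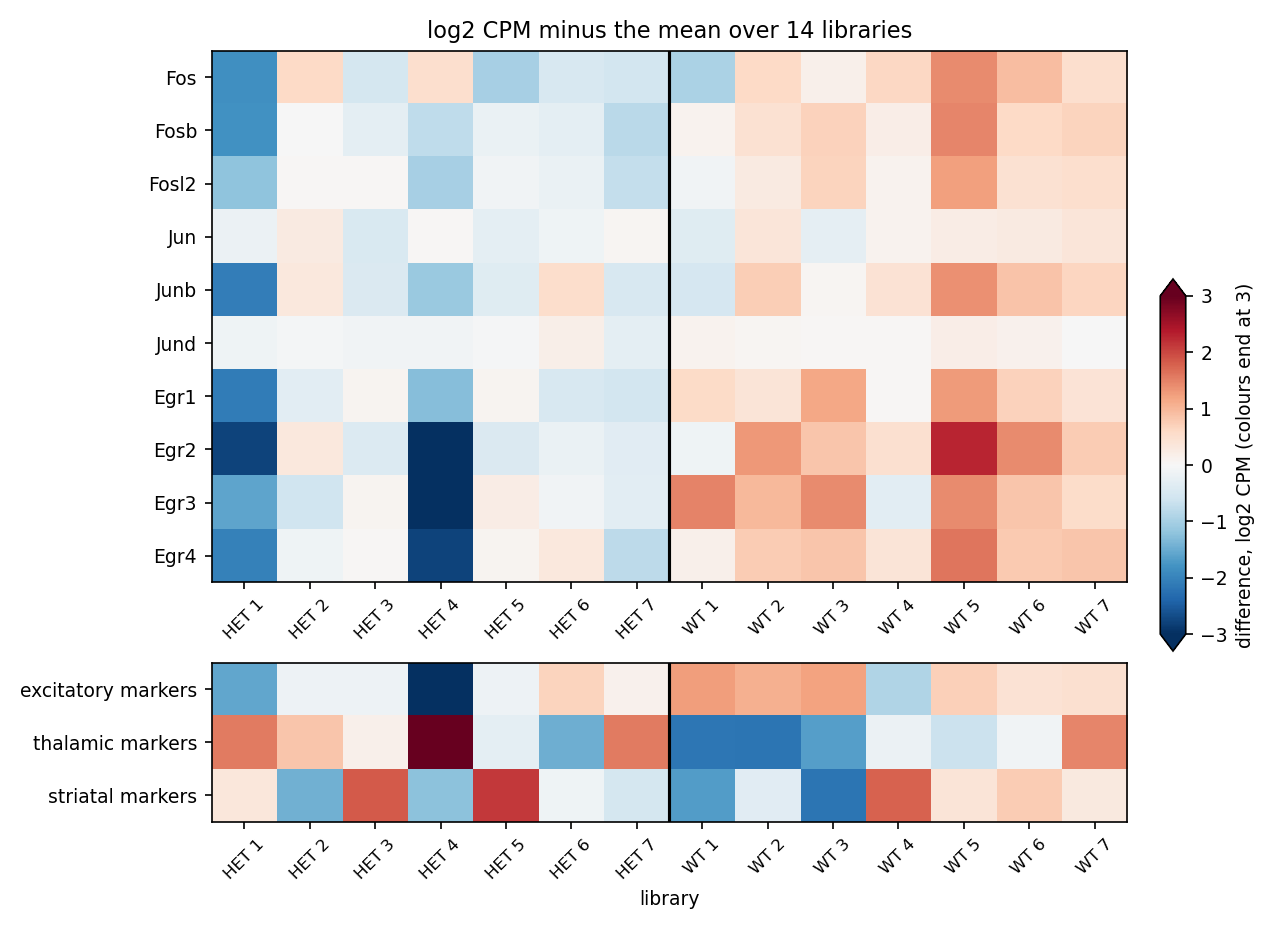
Difference of each library from the mean over all 14 libraries in log2 CPM, for the 10 genes (upper panel) and for the mean of 3 lists of marker genes (lower panel), with HET libraries on the left and WT on the right. HET 1 and HET 4 are low for most of the genes and for the excitatory markers, and HET 4 is high for the thalamic markers.

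Markers of excitatory neurons and of neighbouring regions also differed between libraries. The 2 libraries with the lowest excitatory marker means were HET replicates 4 and 1. They were also the 2 lowest HET libraries for Fosl2, Junb, Egr1, Egr2, Egr3 and Egr4, while Fos was high in HET replicate 4. The 10 markers of excitatory cortical neurons, which are the main cells expressing Egr genes in cortex, summed to between 987 and 6712 CPM in HET libraries and between 2897 and 8685 CPM in WT libraries. All 10 had a negative log2 fold change (median -0.91), 0 were called in edgeR and 6 were lower at an unadjusted p under 0.05. Of all genes tested, 46.7% had a negative log2 fold change and 10.4% were lower at that p, a share that applies to each list below. HET replicate 4, HET replicate 1 and WT replicate 4 had the lowest excitatory marker means, at 3.77, 5.22 and 5.88 log2 CPM, and every other library had 6.63 or more. The 10 markers of thalamic neurons summed to between 139 and 1730 CPM in HET and between 77.8 and 597 CPM in WT, with a median log2 fold change of 1.42, 0 called and 6 higher at an unadjusted p under 0.05 (11.8% of all genes were). Gbx2 was at 0 in 2 WT libraries, and no other defining marker of any list was at 0 in a library. Striatal markers ran from 203 to 2538 CPM in HET and from 204 to 1716 CPM in WT. Microglial markers summed to between 232 and 332 CPM in HET and between 298 and 346 CPM in WT, with 3 of 6 lower at an unadjusted p under 0.05, and the 5 red cell markers to between 106 and 201 CPM in HET and between 136 and 438 CPM in WT, with 5 of 5 lower at that p. For astrocytes 2 of 6 markers were lower at that p (Slc1a2 and Slc1a3), and for inhibitory neurons, endothelial cells and choroid plexus 1 marker each was higher, while for oligodendrocytes and striatal neurons 0 differed at that p. The summed level of every marker list overlapped between HET and WT libraries.

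With the excitatory marker mean as a covariate in edgeR, 0 of the 10 genes were called, as were 0 genes lower in all. The marker mean was itself lower in HET (6.18 ± 1.26 log2 CPM) than in WT (7.40 ± 0.75 log2 CPM). This fit therefore cannot tell the markers and the genotype fully apart, and how much of a change in an estimate comes from cell makeup was not tested. The estimates of Fosb, Fosl2, Junb, Jund and the Egr genes were closer to 0 than without the covariate. Among the Egr genes they were -0.77 for Egr1, -1.18 for Egr2, -0.51 for Egr3 and -0.74 for Egr4, with adjusted p between 0.308 and 0.415. The estimate was -0.94 for Fosb (adjusted p 0.232), -0.62 for Fosl2 (0.328), -0.65 for Junb (0.503) and -0.12 for Jund (0.518). Those of Fos, at -1.10 (adjusted p 0.357), and Jun, at -0.26 (adjusted p 0.517), were further from 0. Without HET replicates 1 and 4, a choice made after seeing the data, the estimates were -0.89 for Fos, -0.96 for Fosb, -0.67 for Fosl2, -0.64 for Junb, -0.92 for Egr1, -1.36 for Egr2, -1.13 for Egr3 and -0.88 for Egr4. In that fit 0 of the 10 genes were called, as were 0 genes lower in all. Without WT replicate 4 as well, Fosb (-1.02, adjusted p 0.0319), Egr1 (-1.01, adjusted p 0.0242) and Egr3 (-1.26, adjusted p 0.0127) were called lower, against 2.35% of all genes.

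**Figure D4:**
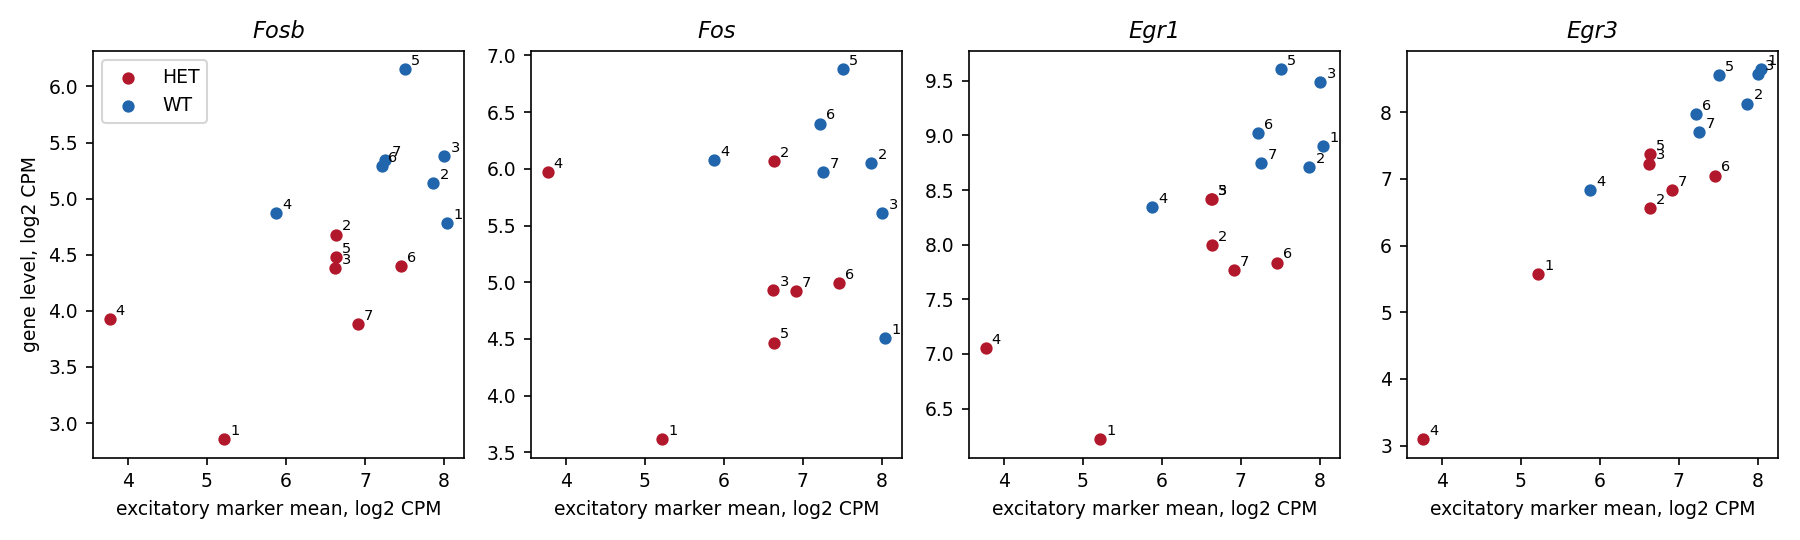
Level of Fosb, Fos, Egr1 and Egr3 (log2 CPM, vertical axis) against the mean of 10 excitatory neuron markers (log2 CPM, horizontal axis) in each library, with HET and WT in different colours and the replicate number beside each point. Egr3 rises with the markers in WT. In HET, Egr3 is lowest in the libraries with the lowest marker means, and above a marker mean of 6.6 it shows no clear rise. Fos shows no clear rise with the markers in either genotype, and the HET points of Fosb lie below all WT points.

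HET replicates 1 to 4 carry another molecule label (total RNA) than the other 10 libraries (polyA RNA), although the labels' protocol describes poly-A selection for all. Among libraries labelled polyA RNA, HET 5 to 7 against WT 1 to 7, the log2 fold changes were -1.26 for Fos, -1.07 for Fosb, -0.82 for Fosl2, -0.24 for Jun, -0.65 for Junb, -0.13 for Jund, -1.0 for Egr1, -1.50 for Egr2, -1.07 for Egr3 and -0.89 for Egr4. With 3 HET libraries edgeR called 0 of them and 0 genes lower in all, and the adjusted p ranged from 0.412 to 0.659. The label total RNA occurs in HET alone, so no value within it compares the genotypes. This subset also leaves out HET replicates 1 and 4, which had the lowest excitatory marker means. The label and the tissue makeup therefore cannot be told apart in this fit. Total counts lay between 33280785 and 47079906 per HET library and between 32814841 and 48291175 per WT library, and mitochondrial genes took 4.39% to 5.64% of a library. The mean of Adnp itself was 6.90 ± 1.30 CPM in HET libraries, against 6.55 ± 0.87 CPM in WT libraries (adjusted p 0.772 in edgeR), and since a frameshift need not alter the mRNA level this does not check the genotype labels.

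The genes whose levels followed the 10 genes most closely were sought by Pearson's r over the 14 libraries, after subtracting each genotype's mean, with the mean standardised level of the 10. Nr4a1, an orphan nuclear receptor induced by activity, had the highest r at 0.950, followed by its relative Nr4a3 at 0.874. Ninl, a centrosomal protein gene (0.866), Taf1b, a subunit of the RNA polymerase I initiation factor (0.857), and the noncoding 1700016P03Rik (0.857), the host transcript of miR-212 and miR-132, came next. Nr4a1 averaged 67.8 ± 31.4 CPM in HET and 155 ± 66.1 CPM in WT (-1.19 on the log2 scale, adjusted p 0.0953 in edgeR), and Nr4a3 36.0 ± 12.7 CPM in HET and 64.4 ± 19.98 CPM in WT (-0.84, adjusted p 0.0878). Taf1b followed the 10 genes within genotypes but had nearly the same mean in both, 14.5 ± 1.85 CPM in HET and 14.9 ± 0.88 CPM in WT (-0.04, adjusted p 0.791). The libraries share their depth and tissue makeup across all these genes, and r is given as a description.

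Other activity-induced genes had lower estimates as a list. Of 28, 0 were called in edgeR. At an unadjusted p under 0.05, 17 were lower and 0 higher, against 10.4% lower and 11.8% higher of all genes tested. A negative log2 fold change was found for 27, against 46.7% of all genes, and the median was -0.74. Since the list was chosen with earlier results known, these shares are a description. Summed over the list, the level was 1696 to 1962 CPM in HET libraries and 2045 to 3328 CPM in WT libraries, which did not overlap. Arc, which encodes a postsynaptic protein that removes AMPA receptors, averaged 93.4 ± 57.7 CPM in HET libraries and 321 ± 173 CPM in WT (-1.78 on the log2 scale, adjusted p 0.0721 in edgeR), and it was called lower without WT replicate 4 (adjusted p 0.0314) but in no other fit that left out 1 library. Npas4, a transcription factor gene induced by calcium entry, averaged 14.6 ± 7.39 CPM in HET libraries and 25.0 ± 9.50 CPM in WT (-0.78, adjusted p 0.236).

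The ERK feedback genes held the 1 called gene of the pathway lists. All 9 had a negative log2 fold change (median -0.32), against 46.7% of all genes, and 3 were lower at an unadjusted p under 0.05, against 10.4%. The call was 1 of 9, against 0.382% of all genes: Dusp6, which encodes a phosphatase of ERK, fell to 43.3 ± 11.7 CPM in HET, against 81.2 ± 20.8 CPM in WT (-0.91, adjusted p 0.0499 in edgeR). The Dusp6 call remained without HET replicate 6 or WT replicate 4 (adjusted p 0.0249 and 0.00824) and ended without any of the other 12 libraries, with an adjusted p between 0.0532 and 0.114. It also ended with the excitatory marker mean as a covariate (-0.56, adjusted p 0.213) and among libraries labelled polyA RNA (-0.68, adjusted p 0.427). With the replicate number as a block the adjusted p of Dusp6 was 0.0610, and with no filter on low counts it was 0.0983.

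Of the partners, corepressors and upstream factors edgeR called 0. Of 11 tested genes for other AP-1 and bZIP partners, 9 had a negative log2 fold change (median -0.31) and 4 were lower at an unadjusted p under 0.05, against 46.7% negative and 10.4% lower of all genes; Batf, Batf2 and Fosl1 did not pass the filter on low counts. Of the Egr corepressors, Nab2 averaged 18.8 ± 6.68 CPM in HET libraries and 28.2 ± 2.83 CPM in WT (-0.59, adjusted p 0.126 in edgeR), and Nab1 38.0 ± 4.66 CPM in HET libraries and 37.4 ± 2.37 CPM in WT (0.02, adjusted p 0.896). Among 16 upstream transcription factors and coactivators the median was -0.14, with 4 lower and 1 higher at an unadjusted p under 0.05. Among 16 upstream kinases it was -0.16, with 7 lower and 2 higher at that p, and 1 of them, Camk2a, is also on the list of excitatory markers. Of all genes 11.8% were higher at that p, so the 1 and 2 genes that were higher lay near the share over all genes.

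The last comparison asks whether the chromatin at these genes was called open in the HET list, the WT list or both. A peak within 1 kb of the gene start was found for 8 of the 10 genes in the HET list (63.6% of all genes tested) and for 7 in the WT list (57.2%). The HET list is the longer, with 30862 peaks over 14.62 Mb, against 19272 peaks over 10.41 Mb in WT, and both are merged over libraries without heights or replicates, so no test was made. Fos, Fosl2, Jun, Junb, Jund, Egr1 and Egr4 had a promoter peak in both lists, as had 55.6% of all genes. Fosb, whose RNA was lower in every HET library, had one in the HET list alone, as had 8.08% of all genes; the reverse held for 0 of the 10 genes and for 1.62% of all. That Fosb peak is 534 bases wide, spans 589 to 56 bases before the gene start and covers 189 of the 250 bases printed above. In the WT list the nearest Fosb peak begins 1277 bases into the gene, and it overlaps a HET peak that begins 1241 bases into the gene.

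At Fos the peak reached 345 bases before and 208 bases after the start in the HET list and 374 bases before and 234 bases after it in the WT list, so the printed bases with their TGACGT lay under both. For Egr4 the HET peak covered 250 of the printed bases and the WT peak 235. The widest peaks at a start were those of Jun, at 1864 bases in HET and 1507 bases in WT, and of Egr1, at 1606 bases in HET and 1518 bases in WT. Egr2 and Egr3 had no peak within 1 kb of the annotated gene start in either list. Egr3 had one that spanned 2546 to 1803 bases before the start in the HET list and 2531 to 1525 bases before it in the WT list. Egr2 had one in the HET list alone, 1977 to 2495 bases after the first annotated start, over a later RefSeq start, and it covered all 250 Egr2 bases printed above with their CArG box and TGACGT. Within 20 kb of the 10 starts there were 32 HET peaks, of which 24 overlapped a WT peak, and 27 WT peaks, of which 24 overlapped a HET peak. The same count was not made for other genes, so these numbers do not set the 10 genes apart.

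**Figure D5:**
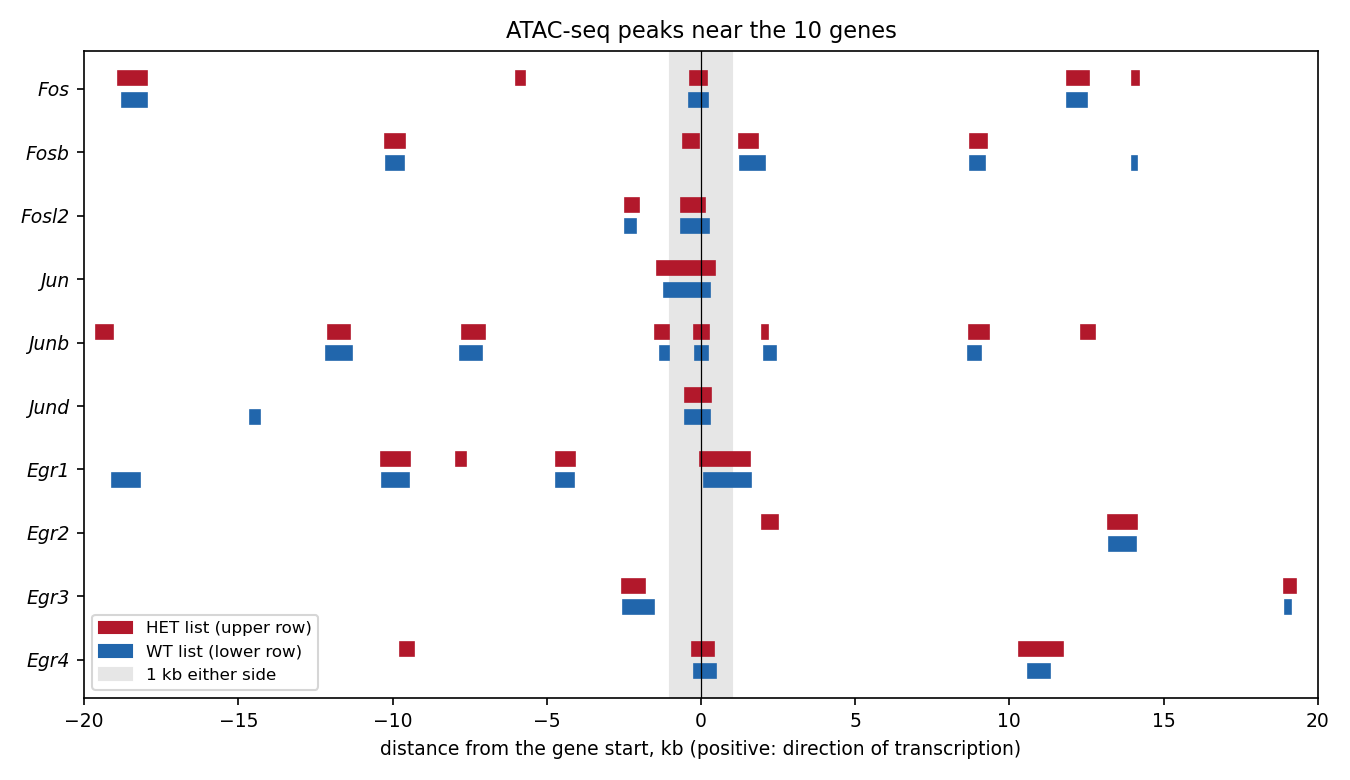
Peaks within 20 kb of the start of each gene, by distance from the start along the direction of transcription in kb, with HET peaks in the upper row of each gene and WT peaks in the lower. The shaded band is 1 kb on either side of the start. Fosb alone has a peak in the band in the HET list and none in the WT list, and Egr2 and Egr3 have none there in either.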

How the data were processed

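RNA-seq covered 7 HET and 7 WT frontal cortex libraries, poly-A selected and read as paired ends on an Illumina instrument, per the labels' protocols. The authors deposited raw counts per gene, made per the file headers with featureCounts over exons of the Ensembl GRCm38 annotation, with strand ignored and reads that overlap several genes left out; STAR and Trimmomatic are named in the submitters' processing notes. The peak lists deposited by the authors give coordinates on mm10 (the same assembly) and no other values; MACS3 is named in the submitters' processing notes, and the sources used here do not say which libraries went into each list. The 4 Hi-C samples and the PAT and Control samples of the ATAC-seq set were not used here.

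Of 55487 genes, 18050 passed edgeR's filterByExpr. With TMM scaling, edgeR 4.0.16 fitted genotype alone and gave two-sided quasi-likelihood p-values, adjusted by Benjamini and Hochberg over these genes and called under 0.05. The fit was also run on simulated counts drawn independently for each gene, which hold no differences in tissue makeup between libraries. CPM values are TMM-scaled, errors are SD over 7 libraries, and log2 CPM used a prior count of 2. Alternatives were DESeq2 1.42.0, its size factors, limma-voom (limma 3.58.1), other filters, a threshold of 0.1, a replicate block, marker covariates, subsets of libraries and each library left out. The closest pair of libraries still differed by a chi-square of 10.1 per degree of freedom, so none was a second copy of another. A promoter peak had at least 1 base within 1 kb of the gene start. Named were the 10 genes, Adnp, Arc, Npas4, up to 4 called genes of each list and the 5 genes of highest correlation, and Nab1, Nab2, Camk2a, Gbx2, Slc1a2 and Slc1a3 were named in addition after their values were seen. The members and lists were chosen with earlier results of these data known. Sequences are from RefSeq on GRCm38.p6.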

Additional observations from a re-analysis of the deposited data

Results flagged for a closer look

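Fosb in WT replicate 5 stood at 71.1 CPM, far from the other WT libraries: its gap to the next library was 0.678 of the range of the 7 WT libraries. Egr4 in the same library stood at 145 CPM, with a gap of 0.656 of the range. Both exceeded the critical value of Dixon's test for 7 values at the 95% level. In all, 28 groups of 7 were examined, for the 10 genes, Arc, Npas4, Dusp6 and Adnp, and chance alone marks about 1 group in 20. Without WT replicate 5 the log2 fold change was -0.97 for Fosb (adjusted p 0.0992 in edgeR) and -1.07 for Egr4 (adjusted p 0.185).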

How the results depend on the processing

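Over the 26 alternatives the log2 fold change was negative for each of the 10 genes, Arc, Npas4 and Dusp6, with ranges of -1.29 to -0.94 for Fosb, -1.26 to -0.68 for Fos, -1.33 to -0.77 for Egr1, -1.99 to -1.18 for Egr2 and -1.77 to -0.51 for Egr3. Against 0 of the 10 genes lower in the main result, DESeq2 called 6, limma-voom 8, DESeq2's size factors in edgeR 1, a filter of 1 CPM in 7 libraries 1 and an adjusted p under 0.1 called 4 (3.11% of all genes). With a library left out the number lay between 0 and 5, and without HET 1, HET 4 and WT 4 together it was 3. None was called higher in any fit. The count over all genes was 175, and it became 1503 with DESeq2, 1886 with limma-voom, 106 with no filter, 1195 at an adjusted p under 0.1, 4 among libraries labelled polyA RNA, 12 with the excitatory covariate, 32 with excitatory, striatal and thalamic covariates, 11 to 1672 with a library left out, 13 without HET 1 and HET 4, and 692 without HET 1, HET 4 and WT 4; the cause was not tested. Promoter peak counts of 8 in HET and 7 in WT were the same with a window of 500 bases and became 10 in HET and 9 in WT with 2 kb.

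With the replicate number as a block edgeR called 0 of the 10 genes and 10 genes in all, and the call of Dusp6 ended (adjusted p 0.0610), as it did with no filter (0.0983). HET and WT libraries of the same number deviated together with correlations from -0.284 to 0.334, and only HET replicate 4 matched its own number best, so the numbers were not taken as pairs. The lowest count of the 10 genes in any library was 38, for Egr2 in HET replicate 4, and an effect of depth was not tested.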
